A study of Mus musculus with 2 samples.

Results

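The p53 circuit was described here through 10 genes: Trp53, which encodes p53, 4 negative regulators of p53 (Mdm2, Mdm4, Ccng1 and Ppm1d) and 5 effectors (Trp53inp1, Ddit4l, Zmat3, Aen and Phlda3). They were chosen by name, with earlier results of these data known. All 10 were found by NCBI gene number among the 17215 genes listed for each library. The cells were MC3T3-E1, a clonal pre-osteoblast line from mouse calvaria, grown in alpha-modified Eagle's medium with serum and with formaldehyde added at 300 µM or at 100 µM. The series concerns the inhibition of osteoblast growth by formaldehyde, and the question here is how the p53 circuit differed between the doses. Each dose was represented by 1 RNA-seq library, the exposure time is not given in the sources used here, and untreated cells were not analysed here. Differences therefore could not be set against a spread between replicates, and no p-value was computed. Each difference is between 2 cultures of a whole population, in which less RNA per cell and fewer cells expressing a gene cannot be told apart.

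p53 is a transcription factor that is kept scarce in unstressed cells because MDM2 binds it and marks it for degradation. DNA damage, including the DNA and protein crosslinks that formaldehyde makes, can interrupt that binding, and p53 then activates genes for cell cycle arrest, repair and cell death. Several of the genes it activates, Mdm2 foremost, act back on p53 and so close a negative feedback loop. In mouse osteoblasts p53 is known as a brake on proliferation and on differentiation. Regulation of p53 is largely at the level of the protein, which mRNA levels do not show.

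At 300 µM 9 of the 10 genes were at least 2-fold lower than at 100 µM, and Trp53 itself was the exception. Levels are in FPKM, a count of sequenced fragments divided by transcript length and by the library's mapped fragments. Ratios are log2 of the FPKM at 300 µM over that at 100 µM, with 1 added to both values, which understates the change of low genes. Over the 10123 genes that averaged 1 FPKM or more, 29.8% were lower by at least 2-fold and 6.09% were higher by that factor (3020 and 616 genes; 2261 and 1472 after centring on the median gene, 2296 and 1745 with a TMM factor, a trimmed mean of ratios, and 3840 and 214 on a scale of equal sums). The 10 genes had a median log2 ratio of -2.48, and the 10123 genes had -0.30. After centring on that median gene 9 of the 10 were again lower, beside 22.3% of all genes. Of the 10, 8 were at least 3-fold lower, beside 16.3% of all genes.

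Promoter windows of the genes were examined for the letters that p53 recognises, because most of these genes are known p53 targets and 9 of them differed in the same direction. The p53 half-site is a pattern of 10 letters that reads the same on both strands, so that searching 1 strand covers both. RefSeq promoter windows (assembly GRCm38.p6, 250 bases before and 50 after an annotated start) were found for 8 of the 10 genes. An exact half-site stood in the window of 6 of these 8: Trp53, Mdm2, Ccng1, Ppm1d, Ddit4l and Aen. The share was 9.55% of 27025 genes with a window, and 8.36% of 32851 windows. The 10 genes are mostly known p53 targets, so their share follows in part from how they were chosen. A match shows only that the letters are there, and whether p53 binds them was not tested. The windows are given 5′ to 3′ on the gene's strand, with the half-site in capitals, because they show where the letters lie in each gene.
Trp53 (chr11:69580109-69580408, plus strand): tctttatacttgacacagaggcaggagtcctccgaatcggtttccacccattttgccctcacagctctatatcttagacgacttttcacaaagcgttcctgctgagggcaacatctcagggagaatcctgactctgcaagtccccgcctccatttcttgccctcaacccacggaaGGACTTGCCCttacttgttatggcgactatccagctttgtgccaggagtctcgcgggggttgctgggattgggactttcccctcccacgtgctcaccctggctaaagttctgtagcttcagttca
Mdm2 (chr10:117710709-117711008, minus strand): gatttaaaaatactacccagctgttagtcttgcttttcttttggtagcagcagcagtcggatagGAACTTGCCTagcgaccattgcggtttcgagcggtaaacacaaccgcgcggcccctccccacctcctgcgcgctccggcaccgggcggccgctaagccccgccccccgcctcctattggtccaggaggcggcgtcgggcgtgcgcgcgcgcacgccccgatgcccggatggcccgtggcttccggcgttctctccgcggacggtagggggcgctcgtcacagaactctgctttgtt
Ccng1 (chr11:40755237-40755536, minus strand): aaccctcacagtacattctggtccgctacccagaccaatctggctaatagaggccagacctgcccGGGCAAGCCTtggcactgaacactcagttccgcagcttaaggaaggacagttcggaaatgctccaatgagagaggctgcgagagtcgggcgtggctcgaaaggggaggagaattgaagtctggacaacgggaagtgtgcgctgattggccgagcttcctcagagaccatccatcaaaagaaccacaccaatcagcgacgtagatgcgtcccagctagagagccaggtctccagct
Ppm1d (chr11:85311004-85311303, plus strand): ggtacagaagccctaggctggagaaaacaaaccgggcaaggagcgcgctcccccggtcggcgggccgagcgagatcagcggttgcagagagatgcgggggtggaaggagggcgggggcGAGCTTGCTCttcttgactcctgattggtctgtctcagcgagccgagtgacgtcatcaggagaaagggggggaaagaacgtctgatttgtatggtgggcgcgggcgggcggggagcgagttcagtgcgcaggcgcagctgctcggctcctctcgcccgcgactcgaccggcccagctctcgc
Ddit4l (chr3:137623422-137623721, plus strand): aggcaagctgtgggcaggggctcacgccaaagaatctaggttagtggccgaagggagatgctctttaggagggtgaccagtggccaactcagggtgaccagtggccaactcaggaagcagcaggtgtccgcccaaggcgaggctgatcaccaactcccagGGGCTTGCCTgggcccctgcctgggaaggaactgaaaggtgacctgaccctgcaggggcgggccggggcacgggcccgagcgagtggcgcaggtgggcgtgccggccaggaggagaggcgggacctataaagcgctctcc
Aen (chr7:78895808-78896107, plus strand): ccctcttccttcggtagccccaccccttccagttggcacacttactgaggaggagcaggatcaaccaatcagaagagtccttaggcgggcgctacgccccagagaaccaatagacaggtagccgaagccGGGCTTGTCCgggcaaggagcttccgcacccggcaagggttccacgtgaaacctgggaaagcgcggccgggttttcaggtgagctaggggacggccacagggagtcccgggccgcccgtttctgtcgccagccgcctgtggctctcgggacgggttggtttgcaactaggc

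The windows of Mdm4 (both annotated starts) and Phlda3 held no exact half-site, which says only that these letters are not in those windows. The Phlda3 window ends in gaacatgt, which fits the first 8 letters of the pattern. Whether a half-site runs across that edge could not be seen. The capitals began at position -75 from the start in Trp53, -186 in Mdm2, -185 in Ccng1, -132 in Ppm1d and -90 in Ddit4l. In Aen the same letters lay at -121 from the start shown and at 10 from its other annotated start. The central letters were CTTG in 5 of the 6 genes and CAAG in Ccng1, which is CTTG read on the other strand. In Ccng1 the 10 bases directly before the half-site, agacctgccc, fitted 9 of the 10 letters of a further half-site, so that the pair forms a run of 20 bases. Such a pair, a half-site with a neighbour at most 1 letter off the pattern, stood in 1 of the 8 genes and in 0.0883% of all windows, a search chosen after the sequences had been seen. In the other 5 genes the better neighbour fitted 5 to 7 letters.

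**Figure D1:**
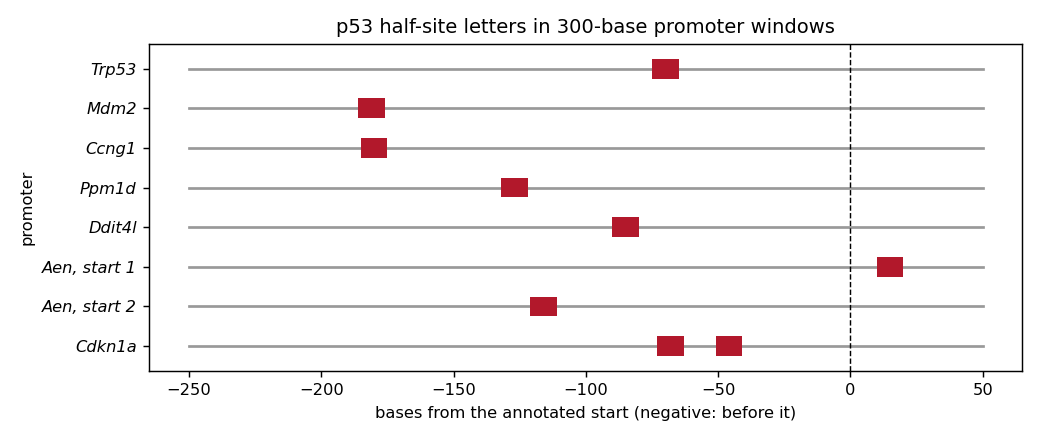
Positions of exact p53 half-sites (red bars, 10 bases) in RefSeq promoter windows, by distance in bases from the annotated start (dashed line), for the 6 of 8 genes with a half-site and for Cdkn1a. Both annotated starts of Aen are drawn, and of Cdkn1a the 1 start of 2 whose window holds half-sites, which are at -73 and -51.

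Over all genes, those with and without a half-site were lower at similar shares. Of 658 compared genes with a half-site in a window, 28.4% were at least 2-fold lower at 300 µM, with a median log2 ratio of -0.20. Of 7580 compared genes with a window and no half-site, 29.96% were, with a median of -0.31.

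Trp53 mRNA stood at 137.56 FPKM at 300 µM against 112.96 FPKM at 100 µM, a log2 ratio of 0.28. The direction flips to -0.09 when both libraries are scaled to equal summed FPKM, and it is 0.58 after centring on the median gene. At 300 µM Trp53 had the highest level of the 10 genes, and at 100 µM the third, below Phlda3 and Ccng1. Of the 50-base words of the Trp53 transcript, 7.43% occur in other genes, the pseudogene Trp53-ps foremost, so that reads there are less certain.

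The 4 negative regulators were at least 3-fold lower at 300 µM with the pseudocount of 1. Ccng1 fell short of 3-fold with the TMM factor (-1.55) and with the length and GC trend removed (-1.53), and Mdm4 without the trend (-1.48) and with a pseudocount of 5 (-1.23). Mdm2, the ubiquitin ligase that marks p53 for degradation, stood at 14.88 FPKM at 300 µM against 105.14 FPKM at 100 µM, a log2 ratio of -2.74. That is 7.07-fold lower in FPKM, with an exact 95% interval of 6.59 to 7.59 from the estimated reads, which covers counting error only. Of the 10123 genes, 236 had a ratio as low or lower. Mdm4, a relative of MDM2 that covers the activation domain of p53 and pairs with MDM2, stood at 1.34 FPKM at 300 µM against 9.92 FPKM at 100 µM, a log2 ratio of -2.22. It was the lowest of the 10 genes at 100 µM. Of its words, 15.5% occur in other genes, the pseudogene Mdm4-ps foremost, so its level is less certain.

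Ppm1d and Ccng1 act on the circuit through phosphate groups. Ppm1d encodes WIP1, a phosphatase that removes activating phosphates from p53 and from the kinases above it, and stood at 2.22 FPKM at 300 µM against 22.35 FPKM at 100 µM. Its log2 ratio was -2.86, or 10.1-fold lower with an interval of 8.37 to 12.2. Ccng1 encodes cyclin G1, which brings the phosphatase PP2A to MDM2, and stood at 61.06 FPKM at 300 µM against 237.33 FPKM at 100 µM, a log2 ratio of -1.94. Ccng1 had the highest level of the 4 negative regulators at both doses.

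The 5 effectors were all at least 2-fold lower, over a wider range with the pseudocount of 1. Ddit4l (REDD2, an inhibitor of mTORC1 signalling) stood at 0.48 FPKM at 300 µM against 30.39 FPKM at 100 µM, a log2 ratio of -4.41. Only 3 of the 10123 genes, Ddit4l included, had a ratio as low. Its level at 300 µM rests on about 25 reads, so that its 63.3-fold difference in FPKM has an interval of 43.4 to 99.6. Trp53inp1, a stress-induced protein that promotes the phosphorylation of p53 and thereby feeds forward, stood at 0.72 FPKM at 300 µM against 30.76 FPKM at 100 µM, a log2 ratio of -4.21. It was 42.7-fold lower in FPKM (interval 33.8 to 54.0, about 76 reads at 300 µM). These 2 genes were the 2 of the 10 that stood below 1 FPKM at 300 µM, while at 100 µM they stood above Ppm1d, Zmat3 and Mdm4.

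The other effectors differed less. Zmat3, an RNA-binding zinc finger protein that acts on splicing, stood at 2.09 FPKM at 300 µM against 21.97 FPKM at 100 µM, a log2 ratio of -2.89. Phlda3, which competes with AKT for membrane lipids and so restrains AKT, stood at 72.72 FPKM at 300 µM against 325.38 FPKM at 100 µM, a log2 ratio of -2.15. It was the most abundant of the 10 at 100 µM. Aen, an exonuclease that promotes apoptosis, stood at 28.63 FPKM at 300 µM against 82.06 FPKM at 100 µM. Its log2 ratio was -1.49, and 1848 of the 10123 genes had a ratio as low or lower.

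**Figure D2:**
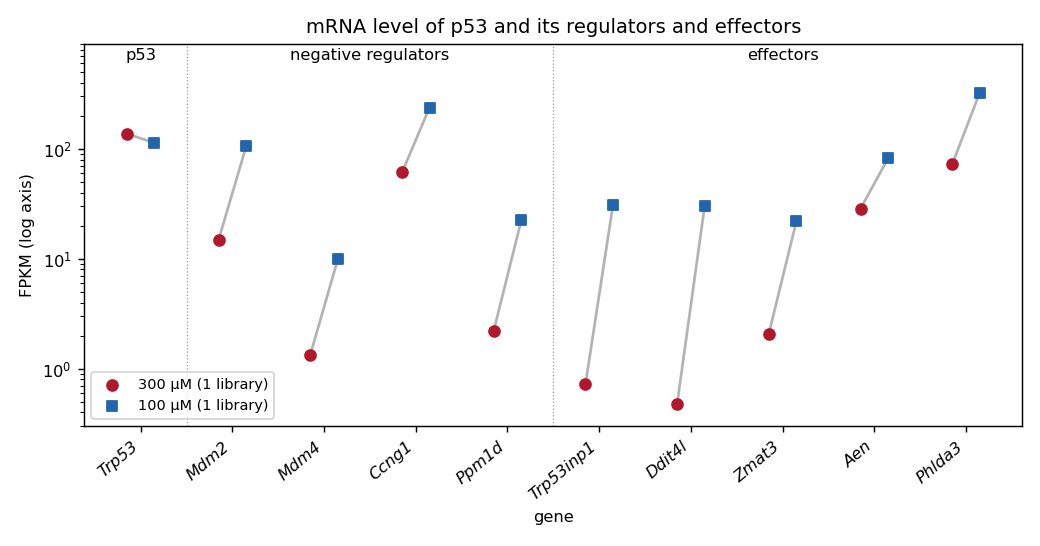
FPKM (log axis) of each gene at 300 µM (red circles) and at 100 µM (blue squares), 1 library each, joined by a line per gene. Trp53 is at 138 and 113 FPKM, while in each of the other 9 genes the 300 µM point lies below the 100 µM point, furthest in Ddit4l.

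Negative regulators and effectors overlapped in their ratios. The log2 ratios ran from -2.86 to -1.94 in the negative regulators, with a median of -2.48. In the effectors they ran from -4.41 to -1.49, with a median of -2.89. Summed over the 4 negative regulators the level was 79.5 FPKM at 300 µM against 375 FPKM at 100 µM, which is 4.71-fold lower. Summed over the 5 effectors it was 105 FPKM at 300 µM against 491 FPKM at 100 µM, which is 4.69-fold lower. The sums, dominated by Ccng1 and Phlda3, thus differed by nearly the same factor. With the pseudocount of 1 the single effectors spread further apart than the single regulators. With a pseudocount of 5 the ranges were of similar width, from -2.69 to -1.37 in the effectors and from -2.47 to -1.23 in the regulators. Whether the groups differ was not tested, since each dose has 1 library.

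Set against Trp53 within a library, the regulators' levels do not depend on how the libraries are scaled to each other. Mdm2 had 0.108 of the FPKM of Trp53 at 300 µM and 0.931 at 100 µM. Ccng1 had 0.444 of it at 300 µM and 2.10 at 100 µM, and Phlda3 had 0.529 at 300 µM and 2.88 at 100 µM. The summed negative regulators came to 0.578 of Trp53 at 300 µM and to 3.32 at 100 µM. These ratios show unequal change, and not that any 1 gene stayed the same. Such mRNA ratios say nothing about the amount of p53 protein.

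**Figure D3:**
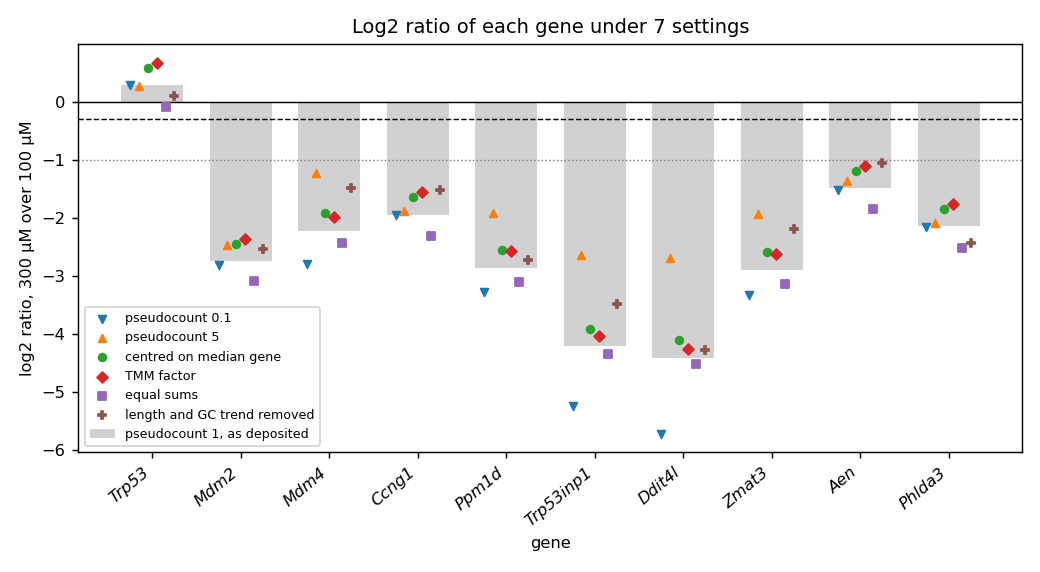
Log2 ratio of each gene, 300 µM over 100 µM, with a pseudocount of 1 (grey bars) and under 6 other settings (symbols). The dashed line is the median of all compared genes at -0.30 and the dotted line 2-fold lower; all symbols of the 9 genes other than Trp53 lie below the dotted line, Aen nearest to it at -1.06 with the length and GC trend removed.

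Longer transcripts had lower ratios over all compared genes, so the ratios of the 10 genes are given beside their transcript lengths. The compared genes were put into 4 classes of equal size by transcript length. In the class of the longest (from 4473 bases) 47.6% were lower by at least 2-fold, and in that of the shortest (up to 1922 bases) 11.9% were. Mdm4, Trp53inp1, Zmat3 and Aen were in the longest class, Mdm2 and Ccng1 in the next, Ppm1d and Ddit4l in the one after, and Trp53 and Phlda3 in the shortest. Phlda3, with a transcript of 1435 bases, was therefore lower in a class whose median log2 ratio was 0.40. With the trend in length and GC taken out, the 9 genes were still at least 2-fold lower, with ratios from -4.28 in Ddit4l to -1.06 in Aen. Without the trend Mdm4 had -1.48, Zmat3 -2.18, Trp53inp1 -3.48 and Phlda3 -2.44, and Trp53 had 0.09.

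**Figure D4:**
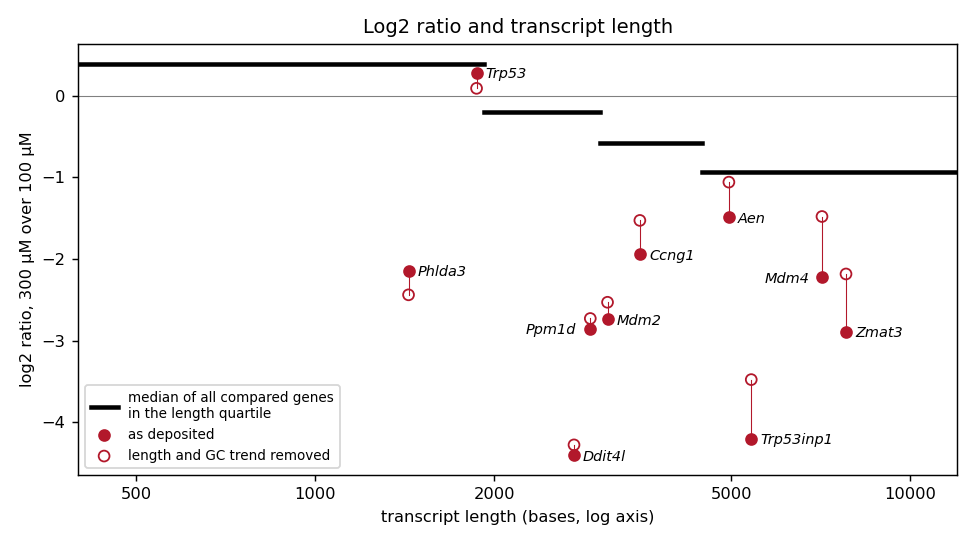
Log2 ratio, 300 µM over 100 µM, against length of the representative transcript in bases (log axis) for the 10 genes as deposited (filled) and with the length and GC trend removed (open). Black bars are medians of the ratios as deposited over all compared genes in each length class, clipped at the ends of the axis. They run from 0.40 in the shortest to -0.94 in the longest. As deposited, all 10 genes lie below the bar of their class, with Trp53, at 0.28, nearest to its bar. No bars are drawn for the ratios with the trend removed.

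Untranslated ends of the transcripts were measured in the same way. The median 3′ UTR was 2097 bases in the 10 genes and 1059 bases in 10022 compared genes with one. The pentamer AUUUA, the core of AU-rich elements through which many short-lived mRNAs are degraded, occurred at least 3 times in 7 of the 10 genes and in 36.6% of the 10022. Per kilobase, the median was 1.79 copies in the 10 genes and 1.33 in the compared genes. Mdm2 had 5.99 copies per kilobase, the highest of the 10. Aen and Phlda3 had 0 copies. Counts of a pentamer grow with length, and whether any of these copies acts was not tested.

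Other p53 targets were lower more often than all genes, with many exceptions. Of 43 genes on that list 40 were compared, and at 300 µM 22 were lower by at least 2-fold (55.0%, beside 29.8% of all genes) and 3 higher (19 and 6 if centred on the median gene, 18 and 6 with the TMM factor). As deposited, the other 15 lay between, and 28 of the 40 had a negative ratio. The median log2 ratio was -1.23, or -0.99 with the length and GC trend removed, beside -0.30 and -0.19 in all genes. Of 7 cell death genes 6 were lower (85.7%). The exception was Bax, at 244.8 FPKM at 300 µM against 183.42 FPKM at 100 µM (0.41). Of 6 genes of DNA repair and nucleotide supply 4 were lower (66.7%). Of 8 cell cycle genes 4 were lower, and of 8 signalling and other genes 4 (50% each). Of 11 genes of metabolism and stress 4 were lower (36.4%, near the 29.8% of all genes). The lowest were Eda2r, a receptor for ectodysplasin A2, at 1.93 FPKM at 300 µM against 38.08 FPKM at 100 µM (-3.74), and Sesn2 (sestrin 2, an mTORC1 inhibitor) at 1.38 FPKM and 28.68 FPKM in the same order (-3.64). Rap2b, a small GTPase gene, had -2.83. Plk3, a stress-responsive Polo-like kinase, was highest at 58.78 FPKM at 300 µM against 11.31 FPKM at 100 µM (2.28), followed by Gadd45a (1.60) and the tetraspanin gene Cd82 (1.07).

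Cdkn1a (p21, which halts the cell cycle) stood at 116.9 FPKM at 300 µM against 604.34 FPKM at 100 µM, a log2 ratio of -2.36 that lies within the range of the negative regulators. Its window at 1 of 2 annotated starts holds 2 half-sites, 1 of them with a neighbour that fits 9 of 10 letters. Of 36 other targets with a window, 11 held a half-site (30.6%, beside 9.55% of all genes with a window). Of these 11, 5 were lower by at least 2-fold, beside 28.4% of all compared genes with a half-site. Only 1, Gadd45a, was higher, and 5 lay between.

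**Figure D5:**
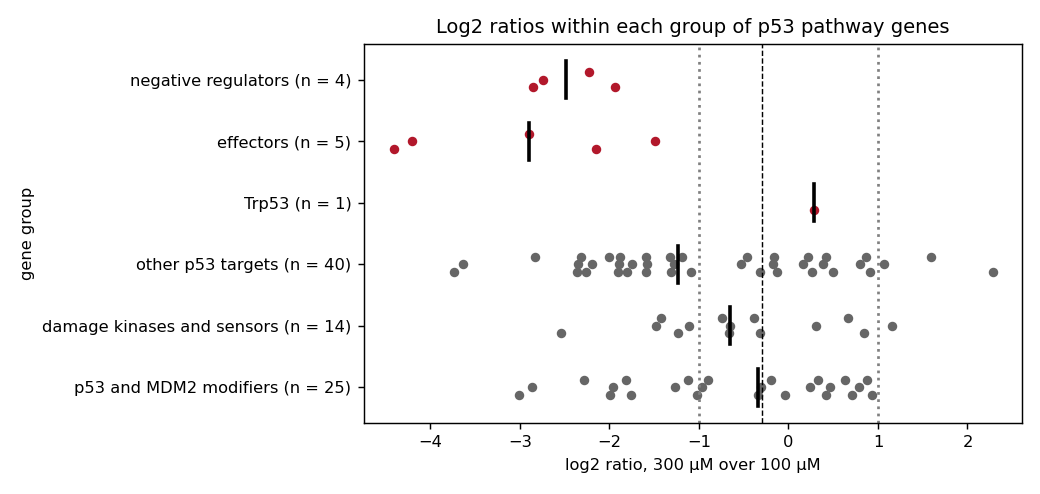
Log2 ratios, 300 µM over 100 µM, of the genes of each group (points) with the group's median (black bar); the dashed line is the median of all compared genes and dotted lines mark 2-fold. Medians are -2.48 in the negative regulators, -2.89 in the effectors and -1.23 in other p53 targets, and nearer to the dashed line at -0.30 in the 2 lists below.

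Genes that act on p53 from above had shares near those of all genes. Of 14 compared damage kinases and sensors 5 were lower (35.7%, beside 29.8% of all genes) and 1 higher. These counts were 3 and 2 after centring, 3 and 3 of 15 with the TMM factor, and 6 and 0 with equal sums. The median log2 ratio was -0.66, beside -0.30 in all genes. With the length and GC trend removed it turns to 0.18, beside -0.19 in all genes. Dyrk2, a kinase of p53, stood at 1.5 FPKM at 300 µM against 13.5 FPKM at 100 µM (-2.54). The ubiquitin ligases Rnf168 and Rnf8, which mark chromatin at double-strand breaks, had -1.48 and -1.42, and 30.7% of the words of Rnf8 occur in other genes. Nbn, a subunit of the break-sensing MRN complex, stood at 13.02 FPKM at 300 µM against 5.27 FPKM at 100 µM (1.16), while Chek2, the checkpoint kinase, had 0.84 and Mre11a, another MRN subunit, 0.67.

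Modifiers of p53 and MDM2 had 10 of 25 compared genes lower (40%, beside 29.8% of all genes) and 0 higher, with a median log2 ratio of -0.35 beside -0.30 in all genes (7 and 4 after centring, 8 and 5 with the TMM factor). Usp10, which removes ubiquitin from p53, stood at 2.39 FPKM at 300 µM against 26.29 FPKM at 100 µM (-3.01). Ep300, the acetyltransferase p300, had -2.87 and the methyltransferase gene Setd7 -2.29. The 5 compared inhibitors of MDM2 (Rpl5, Rpl11, Rpl23, Npm1 and Nop53) had 0 lower and a median log2 ratio of 0.71. With the trend removed that median is 0.33, beside -0.19 in all genes. Highest were Rpl11, at 2254 FPKM at 300 µM against 1181 FPKM at 100 µM (0.93), and Rpl23 (0.87), ribosomal proteins that can bind MDM2, and Smyd2, a methyltransferase of p53 (0.79). With the trend removed Rpl11 had 0.14 and Rpl23 0.33. Rpl11 and Rpl23 share 62.2% and 33.9% of their words with other genes and are less certain.

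The library at 300 µM held an estimated 19400000 fragments and the one at 100 µM 18500000. Of 9 osteoblast markers 8 were compared, and 1 was lower by at least 2-fold (12.5%, beside 29.8% of all genes). That was the homeobox gene Dlx5, at 7.04 FPKM at 300 µM against 32.88 FPKM at 100 µM (-2.08). Runx2 had a log2 ratio of -0.97, Spp1 0.30 and Sp7 0.35. Ibsp, at 1.77 FPKM at 300 µM against 1.83 FPKM at 100 µM, had -0.03. Alpl, at 1.06 and 0.98 FPKM in that order, had 0.06. Both are near the lowest level compared, where the pseudocount understates change. Col1a1 stood at 1714 FPKM at 300 µM against 2065 FPKM at 100 µM, and Col1a2 at 2161 and 2336 FPKM in that order, while Bglap was at 0.49 FPKM at 300 µM and listed at 0 at 100 µM. Markers of other cell types summed to little: 5 macrophage and blood genes to 1.23 FPKM at 300 µM against 3.06 FPKM at 100 µM, 4 adipocyte genes to 0.63 and 0.33 FPKM in that order, 4 endothelial genes to 0.10 and 0.12 FPKM, and 5 epithelial genes to 7.26 and 8.52 FPKM, of which Krt14 held 6.99 and 8.41 FPKM. Both scalings on the bulk of the genes raise the ratios, by 0.30 (centring on the median gene) or up to 0.40 (TMM factor) on the log2 scale, and scaling to equal sums lowers them by up to 0.38.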

How the data were processed

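FPKM per gene, as deposited by the authors per the file headers, were given to 2 decimals in 1 table for each library. Per the submitters' processing notes, Bowtie2 and RSEM were among the tools, with no version. No source used here gives the genome build or annotation, so the only coordinates printed are those of the RefSeq promoter windows, on the assembly of that table. RSEM divides reads among isoforms and near-identical copies, and a few abundant transcripts in a library lower the FPKM of all its other genes.

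Genes were matched by NCBI gene number to RefSeq (17179 of 17215 named). Perp, Cdkn2a and Adipoq were not analysed here. Log2 ratios used a pseudocount of 1, genes were compared from a mean FPKM of 1, and called means 2-fold or more on that scale. GC content, transcript length and 3′ UTR length were taken from 1 representative GENCODE M21 transcript per gene, for 10093 of the 10123 compared genes. Exons of the 10 genes overlap no other annotated gene there.

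Depth was read from genes with 1 transcript, whose FPKM times length lay within 0.12 reads of whole multiples of 51.5 bases at 300 µM (64.5% of 62 values) and of 54 bases at 100 µM (69.5% of 82), where evenly spread values would give 24%. Step sizes were picked to maximise that share. Reads per gene follow from it and are approximate, and Clopper-Pearson 95% intervals of a ratio cover counting error only.

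The 10 genes and all lists were chosen with earlier results of these data known. All 10 are named, and of each further list the 3 highest and 3 lowest ratios. Cdkn1a, Bax, the genes of the MDM2 inhibitor group and the markers printed are named in addition. Scripts ran in Python 3.11.15 with scipy 1.17.1, numpy 2.4.6, matplotlib 3.10.9 and pandas 2.3.3.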

Additional observations from a re-analysis of the deposited data

How the results depend on the processing

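The count of lower genes among the 10 was 8 or 9 under all 10 alternatives: pseudocounts of 0.1 and 5, no minimum level or a minimum mean of 10 FPKM (9 genes left, 8 lower), centring, a TMM factor, equal sums, removal of the length and GC trend, and thresholds of 1.5-fold and 3-fold. The log2 ratios of the 9 lower genes kept their sign under the 6 alternatives tried on them. The pseudocount moved the low genes most: Ddit4l ranged from -5.72 (pseudocount 0.1) to -2.69 (pseudocount 5) and Trp53inp1 from -5.23 to -2.64. Trp53 ranged from -0.09 with equal sums to 0.68 with the TMM factor.

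Counts of lower genes on the other lists moved by over 1.5 times in these settings. With a pseudocount of 5, there were 2 in place of 5 kinases and sensors, 6 in place of 10 modifiers and 1630 in place of 3020 of all genes. With the minimum mean of 10 FPKM fewer genes are compared, so the counts fall in part for that reason. There were 13 of 29 other targets in place of 22 of 40. Of 2 kinases and sensors 1 was lower, of 18 modifiers 4, and of all 5340 genes 1141. Kinases and sensors gave 3 after centring, 3 with the TMM factor, 3 without the trend, 8 at 1.5-fold and 1 at 3-fold. Of all 10123 genes, 4209 were lower at 1.5-fold, a count that moved by less, and 1653 at 3-fold.

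No paired analysis was possible because each dose has 1 library, and leaving out a library leaves no comparison.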
